A study of Rattus norvegicus with 9 samples.

Results

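NRF2, the transcription factor encoded by Nfe2l2, drives genes that detoxify oxidants and electrophiles, and heme oxygenase 1 (Hmox1) is among the best known of them. The set described here holds 10 genes taken by symbol from the 22324 genes of the deposited count table. Its 6 targets are Hmox1, Nqo1, Txnrd1, Gclm, Gclc and Srxn1, and its 4 regulators are Nfe2l2, Keap1, Sqstm1 and Bach1. All 10 genes were found, and all 10 passed the filter on low counts that left 14956 genes for testing. Poly(A) RNA came from primary nucleus pulposus cells of wild-type rats, the cells of the soft centre of the intervertebral disc, grown in high-glucose DMEM with 10% serum. The 9 libraries form 3 groups of 3. BNPMT libraries are from cells in doxorubicin-induced senescence that received an intervention named BNPMT, a name the labels do not expand and for which they give no dose or time. SEN libraries are from cells in doxorubicin-induced senescence with no intervention named. NC libraries were taken as untreated cells from their titles and the series' design text, although the protocol on every sample, NC included, describes doxorubicin (200 nM, 24 h) followed by 6 days without it. No label states that the 3 libraries of a group came from separate cultures, and p-values therefore reflect only how far these libraries differ, which can be technical variation.

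In resting cells the adaptor protein KEAP1 holds NRF2 and passes it to a cullin ubiquitin ligase, so NRF2 protein is made and destroyed continuously. Oxidants or electrophiles modify KEAP1, and p62 (Sqstm1) can also bind KEAP1 and take it into autophagosomes. NRF2 then pairs with a small MAF protein and binds antioxidant response elements, which the repressor BACH1 occupies until heme displaces it. NRF2 is controlled largely at the level of its protein, which RNA sequencing does not measure. In the disc, where cells live with little oxygen and few vessels, the pathway is known mostly for protection of nucleus pulposus cells against oxidative damage.

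In SEN cells 9 of the 10 genes were higher than in NC cells and Keap1 alone was lower, and in BNPMT cells the same 9 were lower than in SEN cells and Keap1 was higher, except that with libraries scaled by total counts Nfe2l2 was lower in SEN than in NC cells and not called in BNPMT against SEN. Hmox1 moved most, averaging 36.0 ± 2.45 FPKM in BNPMT cells, 1367 ± 46.5 FPKM in SEN cells and 52.8 ± 0.240 FPKM in NC cells (SD, n = 3 each). Between BNPMT and NC cells the differences were small, with Nqo1 and Sqstm1 higher in BNPMT cells, Hmox1, Txnrd1, Gclc and Srxn1 lower, and 4 genes not called. Calls are adjusted p-values below 0.05 in edgeR's quasi-likelihood F test on the counts of all 9 libraries, adjusted over the 14956 genes. Most genes moved in this experiment: 37.6% of all tested genes were called higher and 38.5% lower in SEN against NC, 40.7% higher and 39.9% lower in BNPMT against SEN, and 26.3% higher and 26.5% lower in BNPMT against NC. The median log2 change of the 10 genes was 2.53 in SEN against NC, -1.89 in BNPMT against SEN and -0.10 in BNPMT against NC, beside -0.01, 0.02 and 0.00 over all tested genes. The 10 genes and the gene lists below were chosen with earlier results of these data known, so such medians describe them and test nothing. SEN libraries enter SEN against NC as well as BNPMT against SEN, so opposite signs there rest in part on the same 3 libraries. RNA of bulk cultures cannot tell a change in every cell from a change in the share of cells that carry a transcript. Overlap of groups, as used below, compares the FPKM of single libraries or ratios of FPKM. How many of all tested genes lack such overlap was not counted, so its absence does not set a gene apart from others. Keap1 and Nfe2l2, not called in BNPMT against NC, had no overlap there either.

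**Figure D1:**
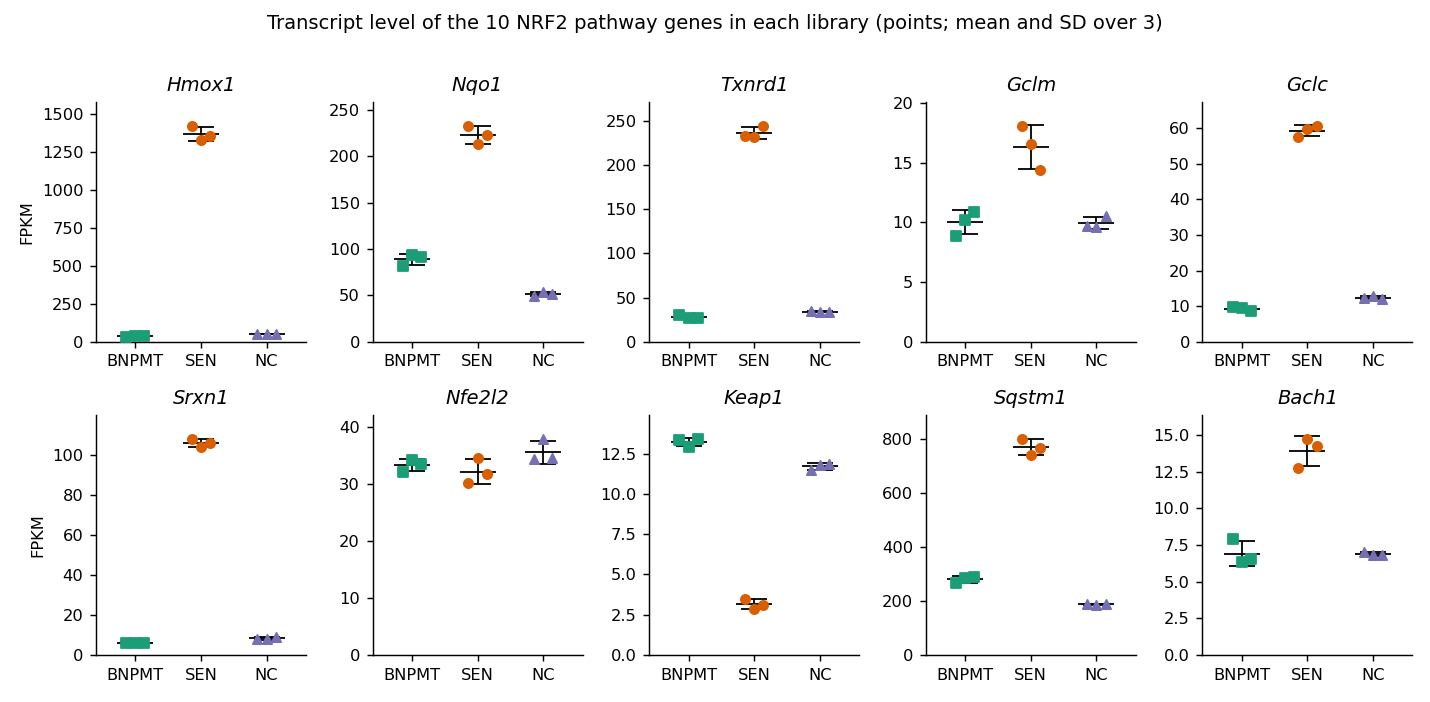
FPKM (the deposited length- and depth-scaled level) of the 10 genes, 1 panel each, on linear axes that start at 0, with 1 point per library and the mean and SD over 3 libraries for BNPMT (squares), SEN (circles) and NC (triangles). In 8 panels the SEN points stand above all others, a pattern that was not counted over all genes. In the Keap1 panel the SEN points lie below all others (2.86 to 3.51 FPKM). In the Nfe2l2 panel the 3 groups lie within 30.2 to 37.9 FPKM.

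Levels are given as FPKM, which divides each count by the gene's length and the library's total, and so can be compared between genes. Log2 changes are from the counts, scaled by TMM, a method that sets the libraries level over most genes. TMM factors were 1.123 to 1.151 in BNPMT, 0.797 to 0.805 in SEN and 1.09 to 1.10 in NC libraries, so the choice of scale matters here. With total counts in place of TMM, the median change of all tested genes was -0.46 in SEN against NC, 0.52 in BNPMT against SEN and 0.06 in BNPMT against NC, and every log2 change below moves by about that much on that scale. Total counts were 35094282 to 41971877 in BNPMT, 31206834 to 38391586 in SEN and 34514440 to 41873790 in NC libraries, and single counts of the 10 genes lay between 296 (Keap1, SEN 2) and 113715 (Hmox1, SEN 1). BNPMT 1 and SEN 1 stood apart from their groups along transcript length: the deviation from the group mean rose with length in BNPMT 1 (rho 0.51 over genes) and fell with it in SEN 1 (rho -0.415). One alternative therefore removed each library's trend over length with a loess curve, and values from it are called length-corrected here. Without both libraries, 9 of the 10 genes were again called higher and 1 lower in SEN against NC, 1 higher and 9 lower in BNPMT against SEN, and 2 higher and 6 lower in BNPMT against NC.

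The promoters of the set were searched for 3 short motifs, since its targets are known to be driven through antioxidant response elements. RefSeq promoters (250 bases before the start to 50 after it, rat build GRCr8) were matched for 9 of the 10 genes, 10 promoters in all, as Txnrd1 has 2; Hmox1 was not among them. The motifs, on both strands, were the antioxidant response element core TGACNNNGC, found in 12.1% of all 33469 promoters of that length, the AP-1 site TGANTCA, in 7.33%, and the E-box CACGTG, in 6.42%. The core stood in 1 promoter of Txnrd1 and in those of Gclm and Nfe2l2, and the AP-1 site in those of Srxn1 and Bach1, with no overlap between motifs; the E-box stood in none of the 10. The 5 promoters with a match are shown because they carry the letters that the pathway is named for, or their close relative, in capitals. Srxn1 (chr3:161064562-161064861, plus strand) has AP-1 sites that begin 62 and 5 bases before the start, Gclm (chr2:213031885-213032184, plus strand) has a core, read on the opposite strand, 172 bases before it, and Txnrd1 (chr7:22755855-22756154, minus strand) has one, also on the opposite strand, 78 bases before it. Bach1 (chr11:40425471-40425770, plus strand) has an AP-1 site from base 30 after the start and Nfe2l2 (chr3:81028950-81029249, minus strand) a core from base 39.
Srxn1: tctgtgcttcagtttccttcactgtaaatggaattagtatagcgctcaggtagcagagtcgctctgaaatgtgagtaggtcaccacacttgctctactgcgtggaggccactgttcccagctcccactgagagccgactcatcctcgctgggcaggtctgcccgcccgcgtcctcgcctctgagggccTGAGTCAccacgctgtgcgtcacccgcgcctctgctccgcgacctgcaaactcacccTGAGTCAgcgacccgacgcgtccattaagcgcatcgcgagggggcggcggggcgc
Gclm: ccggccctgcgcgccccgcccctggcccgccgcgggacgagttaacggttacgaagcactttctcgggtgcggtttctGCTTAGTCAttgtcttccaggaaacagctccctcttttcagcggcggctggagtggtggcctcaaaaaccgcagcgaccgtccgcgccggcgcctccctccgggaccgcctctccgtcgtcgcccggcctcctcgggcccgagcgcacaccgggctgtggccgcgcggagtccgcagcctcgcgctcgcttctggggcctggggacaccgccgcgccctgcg
Txnrd1: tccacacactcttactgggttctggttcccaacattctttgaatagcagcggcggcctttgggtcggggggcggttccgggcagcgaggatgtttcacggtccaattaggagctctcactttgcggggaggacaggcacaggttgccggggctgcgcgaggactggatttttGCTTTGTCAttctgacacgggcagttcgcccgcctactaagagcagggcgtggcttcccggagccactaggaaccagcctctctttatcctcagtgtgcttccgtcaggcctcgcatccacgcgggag
Bach1: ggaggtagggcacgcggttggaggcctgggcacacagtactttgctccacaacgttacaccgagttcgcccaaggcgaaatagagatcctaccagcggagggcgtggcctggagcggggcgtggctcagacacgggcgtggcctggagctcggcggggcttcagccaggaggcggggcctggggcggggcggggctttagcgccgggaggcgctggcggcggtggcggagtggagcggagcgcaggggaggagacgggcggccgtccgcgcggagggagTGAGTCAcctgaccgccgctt
Nfe2l2: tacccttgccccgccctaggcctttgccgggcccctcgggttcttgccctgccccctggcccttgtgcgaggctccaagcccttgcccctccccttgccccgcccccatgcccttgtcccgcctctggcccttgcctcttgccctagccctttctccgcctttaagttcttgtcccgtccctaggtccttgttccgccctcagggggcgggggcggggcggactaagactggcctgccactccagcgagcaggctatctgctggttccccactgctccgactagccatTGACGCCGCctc
A match is a description of letters and does not show that a protein binds there. The Srxn1 site 5 bases before the start reads TGAGTCAgc with its next letters, which differs from the searched core only by a G in place of the C. Cores with that G were not searched, so the lack of a core in Srxn1 holds for TGACNNNGC alone. The promoters of Nqo1, Gclc, Keap1 and Sqstm1 and the other Txnrd1 promoter held none of the 3 motifs within these 300 bases.

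Heme oxygenase 1 opens the heme ring and yields biliverdin, carbon monoxide and iron. Hmox1 stood at 33.3, 37.9 and 37.0 FPKM in the BNPMT libraries, at 1419, 1328 and 1356 FPKM in the SEN libraries and at 52.6, 52.7 and 53.1 FPKM in the NC libraries. The SEN libraries lay far above all others, and the BNPMT libraries lay below the NC libraries with no overlap. Mean FPKM in SEN was 25.9 times that in NC cells. FPKM is scaled by library totals, and the TMM-scaled fit gave a larger log2 change, 5.15 ± 0.07 (SE, adjusted p = 1.35e-15), which ranked 465 from the highest among 14956 tested genes. The log2 change in BNPMT against SEN was -5.75 ± 0.07 (adjusted p = 7.64e-16), rank 382 from the lowest. BNPMT cells also fell below NC cells, by 0.60 ± 0.06 on the log2 scale (adjusted p = 5.68e-06), with a range of -0.75 to -0.54 over 23 alternative analyses. Hmox1 made up 0.277% to 0.296% of all counts in SEN libraries. The gene overlaps LOC134483111 in the RefSeq annotation of GRCr8, and as strand handling is not given, reads of such a pair cannot be told apart.

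NQO1 reduces quinones in a single step with 2 electrons, which spares the cell the reactive half-reduced form. Nqo1 stood at 82.2, 93.1 and 90.8 FPKM in BNPMT, at 232, 213 and 223 FPKM in SEN and at 49.3, 53.7 and 52.0 FPKM in NC libraries. All 3 groups were apart, with BNPMT between SEN and NC. The log2 change was 2.56 ± 0.07 in SEN against NC (adjusted p = 6.87e-13) and -1.83 ± 0.07 in BNPMT against SEN (adjusted p = 1.41e-11). Unlike Hmox1, Nqo1 remained higher in BNPMT than in NC cells, by 0.73 ± 0.07 (adjusted p = 2.23e-06), a value that was 0.47 (adjusted p = 2.79e-07) when length-corrected.

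Thioredoxin reductase 1 (Txnrd1) is the selenoenzyme that recharges cytosolic thioredoxin, and sulfiredoxin (Srxn1) repairs peroxiredoxins that were oxidised too far. Txnrd1 stood at 30.0, 26.8 and 26.8 FPKM in BNPMT, at 233, 232 and 244 FPKM in SEN and at 35.3, 34.0 and 33.4 FPKM in NC libraries. Srxn1 stood at 6.04, 5.93 and 6.17 FPKM in BNPMT, at 108, 104 and 106 FPKM in SEN and at 7.88, 7.90 and 8.97 FPKM in NC libraries. For both genes the SEN libraries were far above the rest and the BNPMT libraries lay below the NC libraries without overlap. In SEN against NC, Srxn1 rose by 4.13 ± 0.07 (adjusted p = 4.59e-15) and Txnrd1 by 3.24 ± 0.06 (adjusted p = 1.40e-14) on the log2 scale with TMM. On mean FPKM, scaled by totals, SEN had 12.8 times the NC level of Srxn1 and 6.91 times that of Txnrd1. The changes in BNPMT against SEN were -4.63 ± 0.07 for Srxn1 (adjusted p = 2.27e-15) and -3.59 ± 0.06 for Txnrd1 (adjusted p = 6.70e-15). Against NC, BNPMT cells had log2 changes of -0.50 ± 0.06 in Srxn1 (adjusted p = 3.39e-05) and -0.35 ± 0.05 in Txnrd1 (adjusted p = 0.000164). Txnrd1 overlaps Eid3 and 3 uncharacterised genes in the annotation of GRCr8.

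Gclc and Gclm encode the catalytic and the modifier subunit of glutamate-cysteine ligase, the enzyme that limits the rate of glutathione synthesis. Gclc stood at 9.67, 9.35 and 8.76 FPKM in BNPMT, at 57.6, 59.9 and 60.6 FPKM in SEN and at 12.3, 12.9 and 12.0 FPKM in NC libraries. Gclm stood at 8.89, 10.2 and 10.9 FPKM in BNPMT, at 18.0, 16.6 and 14.4 FPKM in SEN and at 9.70, 9.59 and 10.6 FPKM in NC libraries. Both subunits were highest in SEN libraries, by a wide margin for Gclc and a narrow one for Gclm, and BNPMT and NC libraries overlapped for Gclm only. The log2 change in SEN against NC was 2.72 ± 0.06 for Gclc (adjusted p = 8.22e-14) and 1.17 ± 0.10 for Gclm (adjusted p = 1.55e-07). It was -3.18 ± 0.06 for Gclc (adjusted p = 2.14e-14) and -1.21 ± 0.10 for Gclm (adjusted p = 8.91e-08) in BNPMT against SEN. Scaled by total counts, the Gclm changes were 0.71 (adjusted p = 1.53e-05) and -0.71 (adjusted p = 1.49e-05). Gclc was lower in BNPMT than in NC cells by 0.47 ± 0.06 (adjusted p = 2.51e-05), whereas the Gclm value of -0.05 ± 0.10 was not called (adjusted p = 0.743) and was -0.30 (adjusted p = 0.00824) when length-corrected.

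The transcript of NRF2 itself differed little between the groups. Nfe2l2 stood at 32.2, 34.3 and 33.5 FPKM in BNPMT, at 30.2, 34.6 and 31.8 FPKM in SEN and at 34.4, 37.9 and 34.6 FPKM in NC libraries. SEN libraries overlapped both other groups, and BNPMT libraries lay just below NC libraries. The fitted changes were 0.31 ± 0.06 in SEN against NC (adjusted p = 0.000567), -0.45 ± 0.06 in BNPMT against SEN (adjusted p = 1.59e-05) and, not called, -0.15 ± 0.06 in BNPMT against NC (adjusted p = 0.0689; -0.15 and called without SEN 2, adjusted p = 0.0479). The direction of the first and second of these depends on the scale: with total counts they were -0.15 (adjusted p = 0.0422) and 0.05 (adjusted p = 0.452), and the length-corrected values were 0.13 (adjusted p = 0.0694) and -0.05 (adjusted p = 0.439). Mean FPKM of Nfe2l2 in SEN was 0.904 times that in NC cells.

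KEAP1 is the sensor and inhibitor of NRF2, and Keap1 was the only gene of the set to fall in SEN cells, apart from Nfe2l2 with total counts. Keap1 stood at 13.4, 12.9 and 13.4 FPKM in BNPMT, at 3.51, 2.86 and 3.09 FPKM in SEN and at 11.5, 11.8 and 11.9 FPKM in NC libraries. SEN libraries were far below the rest, and BNPMT libraries were a little above NC libraries with no overlap. The log2 change was -1.44 ± 0.08 in SEN against NC (adjusted p = 9.58e-10), 1.56 ± 0.08 in BNPMT against SEN (adjusted p = 3.48e-10) and, not called, 0.12 ± 0.07 in BNPMT against NC (adjusted p = 0.157, and 0.0496 with total counts). Mean FPKM was 3.72 times higher in NC than in SEN cells.

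The protein p62, encoded by Sqstm1, is an autophagy receptor that binds KEAP1 and is also a target of NRF2. Sqstm1 stood at 267, 286 and 290 FPKM in BNPMT, at 801, 742 and 768 FPKM in SEN and at 189, 184 and 190 FPKM in NC libraries. The 3 groups did not overlap, and BNPMT lay between SEN and NC, as for Nqo1. The log2 change was 2.49 ± 0.06 in SEN against NC (adjusted p = 1.47e-13), -1.96 ± 0.06 in BNPMT against SEN (adjusted p = 1.18e-12) and 0.53 ± 0.05 in BNPMT against NC (adjusted p = 5.92e-06).

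BACH1 is the heme-sensing repressor of Hmox1 and other NRF2 targets. Bach1 stood at 7.90, 6.31 and 6.53 FPKM in BNPMT, at 12.8, 14.7 and 14.2 FPKM in SEN and at 7.03, 6.81 and 6.80 FPKM in NC libraries. SEN libraries were above all others, on average 2.02 times the NC level, and BNPMT and NC libraries overlapped. The log2 change was 1.47 ± 0.08 in SEN against NC (adjusted p = 7.76e-10) and -1.51 ± 0.08 in BNPMT against SEN (adjusted p = 4.98e-10), and the second was -0.87 (adjusted p = 1.14e-11) when length-corrected. The BNPMT against NC value of -0.04 ± 0.08 was not called (adjusted p = 0.656); it was 0.30 (adjusted p = 3.17e-05) when length-corrected and -0.15 (adjusted p = 0.00735) without BNPMT 1 and SEN 1. Bach1 has the longest transcript of the set, 10709 bases, and overlaps the pseudogene Ndufa7-ps1 in the annotation of GRCr8.

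**Figure D2:**
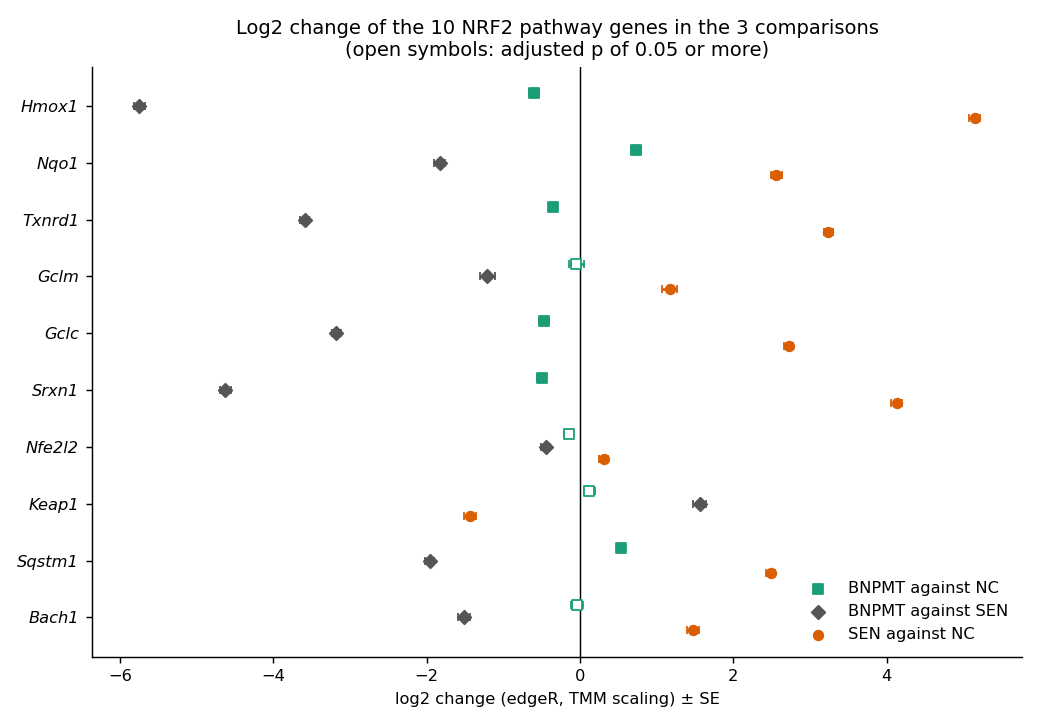
Log2 change ± SE of each gene, from edgeR with TMM scaling, in BNPMT against NC (squares), BNPMT against SEN (diamonds) and SEN against NC (circles); open symbols had an adjusted p of 0.05 or more. The BNPMT against NC values lie between -0.60 (Hmox1) and 0.73 (Nqo1), whereas the other comparisons reach -5.75 and 5.15 for Hmox1; the Nfe2l2 values in SEN against NC and in BNPMT against SEN change sign with total counts.

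The order of the 10 levels differed between groups. In BNPMT and NC cells Sqstm1 was the most abundant transcript per length, at 281 and 188 FPKM, and in SEN cells it was Hmox1, at 1367 FPKM, ahead of Sqstm1 at 771 FPKM. In SEN cells Txnrd1 (237 FPKM) and Nqo1 (223 FPKM) followed, with ranges that overlapped narrowly, and Keap1 was last at 3.15 FPKM. In NC cells Hmox1 and Nqo1 overlapped, as did Nfe2l2 and Txnrd1, and Bach1 was last at 6.88 FPKM. In BNPMT cells Hmox1 overlapped Nfe2l2 and Gclm overlapped Gclc, and Srxn1 was last at 6.05 FPKM. Summed over the 10 genes, the level was 1274 to 1326 CPM (the count scaled to the library total) in BNPMT, 6470 to 6780 CPM in SEN and 1129 to 1144 CPM in NC libraries. Hmox1 made up 5.45% to 5.97% of that sum in BNPMT, 42.7% to 43.7% in SEN and 9.63% to 9.80% in NC libraries.

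Ratios of 2 transcripts in the same library do not depend on how libraries are scaled, and they show that the genes did not move in step. Such ratios can still carry the trend over length where the 2 genes differ in length, and no ratio was length-corrected. Gclc over Gclm, catalytic over modifier subunit, was 0.937 ± 0.142 in BNPMT, 3.68 ± 0.516 in SEN and 1.25 ± 0.104 in NC libraries (SD, n = 3 each). Gclc has 3568 bases and Gclm 1488, and BNPMT 1 was the highest (1.09) and SEN 1 the lowest (3.19) of its group. In BNPMT against NC, Gclm was at -0.30 when length-corrected, and Gclc at -0.50 to -0.38 over the alternatives. Whether BNPMT and NC would differ in this ratio after length correction was not tested. Keap1 over Nfe2l2, inhibitor over factor, was 0.397 ± 0.0193 in BNPMT, 0.0987 ± 0.0168 in SEN and 0.329 ± 0.0170 in NC libraries. Bach1 over Nfe2l2, repressor over activator, was 0.208 ± 0.0327 in BNPMT, 0.432 ± 0.0131 in SEN and 0.194 ± 0.0127 in NC libraries. In each of these 3 ratios SEN stood apart from both other groups, and BNPMT and NC overlapped in the Bach1 ratio alone. Sqstm1 over Keap1 was 21.3 ± 1.13 in BNPMT, 245 ± 15.8 in SEN and 16.0 ± 0.376 in NC libraries.

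Ratios between targets showed the same. Nqo1 over Hmox1 was 2.46 ± 0.0075 in BNPMT, 0.163 ± 0.00229 in SEN and 0.978 ± 0.0404 in NC libraries. The Nqo1 transcript thus outweighed that of Hmox1 in BNPMT cells and was close to it in NC cells. Nqo1 over Txnrd1 was 3.20 ± 0.404 in BNPMT, 0.942 ± 0.0471 in SEN and 1.51 ± 0.0982 in NC libraries. Srxn1 over Txnrd1 was 0.447 ± 0.0145 in SEN libraries, against 0.218 ± 0.0148 in BNPMT and 0.241 ± 0.024 in NC libraries, and here BNPMT and NC overlapped, which they did not in the other ratios of this group. Hmox1 over its constitutive paralog Hmox2 was 2.02 ± 0.00697 in BNPMT, 156 ± 4.50 in SEN and 3.66 ± 0.145 in NC libraries.

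**Figure D3:**
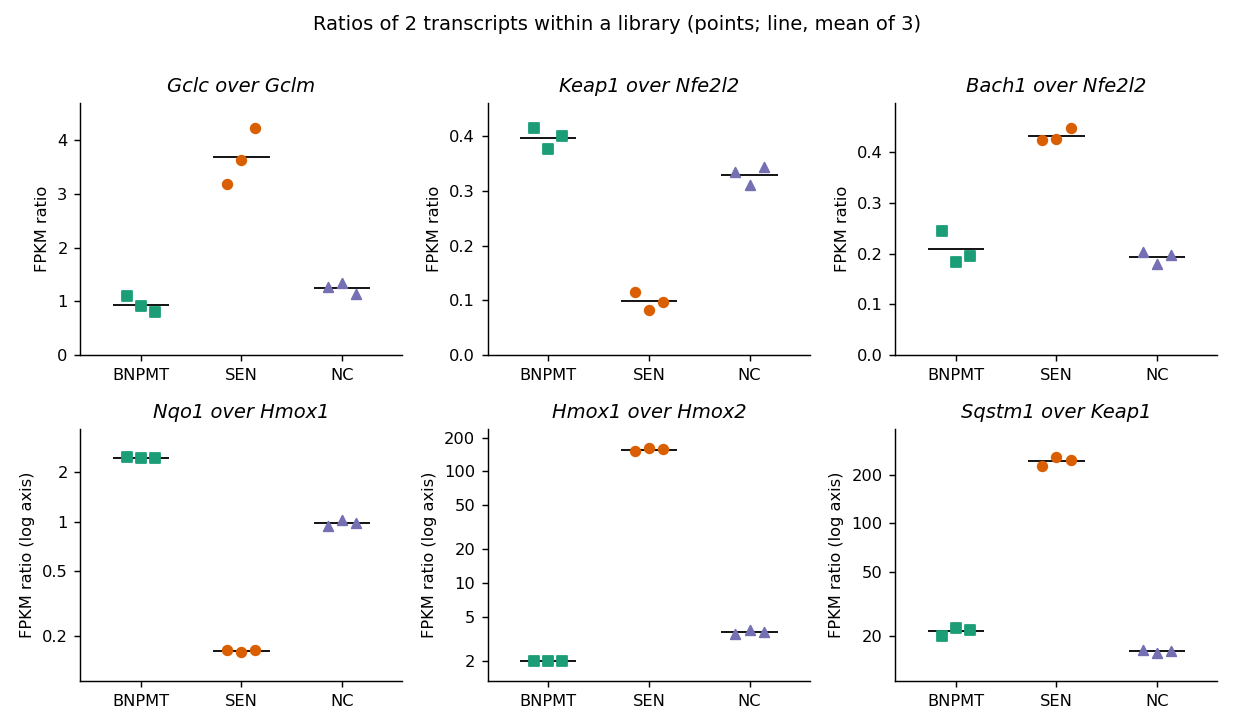
FPKM ratios of 2 transcripts within each library (points) with the mean of 3 (line) for BNPMT, SEN and NC; the upper 3 panels have linear axes from 0 and the lower 3 have log axes. SEN libraries stand apart in all 6 panels, at 3.19 to 4.22 for Gclc over Gclm and at 151 to 160 for Hmox1 over Hmox2.

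Most paralogs of the set did not share these changes. Hmox2, the constitutive heme oxygenase, stood at 16.5, 18.8 and 18.3 FPKM in BNPMT, at 9.41, 8.32 and 8.63 FPKM in SEN and at 15.0, 13.9 and 14.5 FPKM in NC libraries. It was thus lowest where Hmox1 was highest, with log2 changes of -0.26 ± 0.08 in SEN against NC (adjusted p = 0.00781), 0.52 ± 0.08 in BNPMT against SEN (adjusted p = 3.22e-05) and 0.26 ± 0.08 in BNPMT against NC (adjusted p = 0.0124). The last of these was not called without BNPMT 2 (adjusted p = 0.0654), BNPMT 3 (adjusted p = 0.0502) or NC 2 (adjusted p = 0.0602). It was also not called when length-corrected (0.13, adjusted p = 0.118). Nfe2l1, the NRF2 relative that drives proteasome genes, averaged 54.5 FPKM in BNPMT, 23.2 FPKM in SEN and 59.6 FPKM in NC cells, with a log2 change of -0.91 ± 0.06 in SEN against NC (adjusted p = 1.14e-08) and 0.73 ± 0.06 in BNPMT against SEN (adjusted p = 9.73e-08). Nfe2l3 had 0 to 5 counts in a library and was not tested. Txnrd2, the mitochondrial thioredoxin reductase, averaged 6.17 FPKM in BNPMT, 1.89 FPKM in SEN and 3.58 FPKM in NC cells, with log2 changes of -0.46 in SEN against NC (adjusted p = 0.00465) and 1.20 in BNPMT against SEN (adjusted p = 7.37e-07). Txnrd3 was higher in BNPMT than in SEN cells, by 0.43 (adjusted p = 0.00388), and its SEN against NC value of -0.01 was not called (adjusted p = 0.935), but was lower and called with total counts (-0.46, adjusted p = 0.00269) and with limma on FPKM (-0.44 to -0.32). Bach2 averaged 0.0921 FPKM in BNPMT, 0.232 FPKM in SEN and 0.145 FPKM in NC cells, and moved in the direction of Bach1 in SEN against NC (1.12 ± 0.20, adjusted p = 0.000172) and in BNPMT against SEN (-1.83 ± 0.21, adjusted p = 2.23e-06).

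Of 26 other regulators and partners of NRF2, 24 were tested. In SEN against NC, 14 were higher, 8 lower and 2 not called, with a median log2 change of 0.54. With total counts 11 were higher and 10 lower. TMM gave 37.6% higher and 38.5% lower over all tested genes. All 3 small MAF genes, whose proteins pair with NRF2 and with BACH1, rose. Mafk averaged 5.74 ± 0.124 FPKM in BNPMT, 47.5 ± 0.801 FPKM in SEN and 6.01 ± 0.0317 FPKM in NC cells, Maff 10.2 ± 0.311, 78.4 ± 2.11 and 7.08 ± 0.525 FPKM in the same groups, and Mafg 8.69 ± 0.551, 31.9 ± 1.38 and 11.8 ± 0.524 FPKM. All 3 were highest in SEN libraries with no overlap. The log2 changes in SEN against NC were 3.44 for Mafk, 3.92 for Maff and 1.89 for Mafg, and in BNPMT against SEN -3.55, -3.44 and -2.38. In BNPMT against NC, Maff was higher by 0.48 (adjusted p = 5.04e-05) and Mafg lower by 0.50 (adjusted p = 1.99e-05), and the Mafk value of -0.11 was not called (adjusted p = 0.0687), but was 0.15 and called when length-corrected (adjusted p = 0.0491).

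Among the other regulators, Syvn1, a ubiquitin ligase of the endoplasmic reticulum that can target NRF2, fell by 1.26 and Rxra, a nuclear receptor reported to bind NRF2, fell by 0.89 in SEN against NC. Between BNPMT and SEN cells, 9 of the 24 were higher, 14 lower and 1 not called, with a median of -0.49. With total counts 11 were higher and 11 lower. Over all tested genes TMM gave 40.7% higher and 39.9% lower. Rbx1, the RING subunit of cullin ligases, rose by 1.49 and Dpp3, a peptidase that can bind KEAP1, rose by 1.08. Against NC, BNPMT cells had 8 higher, 12 lower and 4 not called, with a median of -0.13. Length-corrected, 10 were higher and 5 lower. With TMM, 26.3% of all tested genes were higher and 26.5% lower in BNPMT against NC. There Map1lc3b, the autophagosome protein LC3B, rose by 0.62 and Crebbp, an acetyltransferase and coactivator, fell by 0.64.

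Of a wider list of 34 known NRF2 targets, 33 were tested. In SEN against NC 24 were higher, 7 lower and 2 not called (18 higher and 9 lower when length-corrected). The median was 0.69, beside 2.98 for the 6 targets of the set. Shares of all tested genes with TMM were 37.6% higher and 38.5% lower. Osgin1, which encodes a growth inhibitor induced by oxidative stress, rose most clearly, to 7.83, 7.21 and 7.15 FPKM in SEN libraries, against 0.215, 0.192 and 0.162 FPKM in NC libraries, and stood at 0.247, 0.184 and 0.108 FPKM in BNPMT libraries. Its log2 change was 5.74 ± 0.17 in SEN against NC (adjusted p = 1.93e-12) and -5.86 ± 0.17 in BNPMT against SEN (adjusted p = 1.50e-12). Akr1b8, an aldo-keto reductase, rose by 1.72, and Slc7a11, the cystine carrier that feeds glutathione synthesis, rose by 1.40. On the other side Slc6a9, a glycine transporter, fell by 0.86. Gsr, glutathione reductase, was not called (-0.14, adjusted p = 0.0578), but was lower and called with total counts (-0.59, adjusted p = 1.15e-06), when length-corrected (-0.39, adjusted p = 2.9e-05), with limma on FPKM (-0.59 to -0.55) and with no filter on low counts (-0.20, adjusted p = 0.0291). It was also called, at -0.19 to -0.15, without BNPMT 1, BNPMT 2, SEN 2 or NC 1 (adjusted p = 0.0295 to 0.0497). Me1, the NADPH-making malic enzyme, had a fitted change of 0.34 (adjusted p = 6.27e-05) that was -0.12 with total counts (adjusted p = 0.0509).

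In BNPMT against SEN, 40.7% of all tested genes were called higher and 39.9% lower. The wider targets split there: 7 were higher, 16 lower and 10 not called, with a median of -0.21. With total counts 17 were higher and 8 lower, and length-corrected 11 were higher and 15 lower, so no common direction can be given. Slc7a11 fell by 2.77 (adjusted p = 1.10e-10), to 1.44, 1.11 and 1.17 FPKM in BNPMT libraries, against 4.80, 6.91 and 6.27 FPKM in SEN libraries. Ptgr1, a prostaglandin and alkenal reductase, rose by 1.22 and Blvrb, which reduces biliverdin and flavins, rose by 1.31, and Gsr rose by 0.32. In BNPMT against NC, 26.3% of all tested genes were called higher and 26.5% lower. There 20 of the 33 were higher, 6 lower and 7 not called, median 0.57 (14 higher and 7 lower, median 0.18, length-corrected). The 2 ferritin genes, whose proteins store iron such as that freed from heme, were among them: Ftl1 averaged 2762 FPKM in BNPMT, 2790 FPKM in SEN and 1296 FPKM in NC cells, and Fth1 1773, 1795 and 979 FPKM in the same groups. The BNPMT against NC changes were 1.04 ± 0.07 for Ftl1 (adjusted p = 1.85e-07) and 0.81 ± 0.09 for Fth1 (adjusted p = 1.20e-05), and 0.79 for Akr1b8. Over 23 alternatives the Ftl1 value was 0.65 to 1.13 and the Fth1 value 0.39 to 0.91. FPKM is scaled by totals, and the TMM-scaled fit called both ferritin genes lower in BNPMT against SEN. The change was -0.52 for each (adjusted p = 1.24e-05 for Ftl1 and 0.000108 for Fth1). Slc7a11 was lower in BNPMT than in NC cells by 1.37 (adjusted p = 1.88e-06) and Slc6a9 by 1.10 (adjusted p = 1.35e-08). Txn1, thioredoxin, averaged 1341 FPKM in BNPMT, 1020 FPKM in SEN and 822 FPKM in NC cells. Its log2 change was 0.66 in BNPMT against NC (adjusted p = 6.97e-05). In BNPMT against SEN it was -0.11 and not called (adjusted p = 0.291).

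Around heme, all 21 listed genes of synthesis, transport and breakdown were tested, with Ftl1, Fth1 and Blvrb shared with the wider NRF2 targets. In SEN against NC, 9 were higher, 7 lower and 5 not called, with a median of 0.03. With total counts 7 were higher and 12 lower. The TMM counts lie near the shares of all tested genes, 37.6% higher and 38.5% lower. Flvcr1, a membrane carrier known as a heme exporter, stood at 3.81, 3.38 and 3.02 FPKM in BNPMT, at 62.5, 66.2 and 65.7 FPKM in SEN and at 4.68, 4.31 and 4.58 FPKM in NC libraries, so SEN libraries were far above the rest. Its log2 change was 4.29 ± 0.08 in SEN against NC (adjusted p = 1.40e-14), -4.75 ± 0.08 in BNPMT against SEN (adjusted p = 7.04e-15) and -0.46 ± 0.08 in BNPMT against NC (adjusted p = 0.000251). Its relative Flvcr2 rose by 3.19 in SEN against NC and fell by 3.61 in BNPMT against SEN. Biliverdin reductase A (Blvra), the step after heme oxygenase, went the other way, at 21.7, 26.9 and 24.8 FPKM in BNPMT, 6.58, 5.64 and 5.59 FPKM in SEN and 14.8, 14.6 and 16.5 FPKM in NC libraries, a log2 change of -0.91 ± 0.11 in SEN against NC (adjusted p = 3.35e-06). Urod, a decarboxylase of heme synthesis, fell by 1.55 in SEN against NC.

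Of the 21 heme genes, 9 were higher, 10 lower and 2 not called in BNPMT against SEN, with a median of -0.12. With total counts 12 were higher and 5 lower. Among all tested genes TMM gave 40.7% higher and 39.9% lower. Urod rose by 2.07. Against NC, BNPMT cells had 13 of them higher, 4 lower and 4 not called, with a median of 0.33 (11 higher and 5 lower, median 0.18, when length-corrected), and besides Flvcr1 the mitochondrial and endosomal porphyrin carrier Abcb6 was lower, by 0.39 (adjusted p = 0.000114).

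Of 31 genes of glutathione and thioredoxin metabolism, 13 were higher, 6 lower and 12 not called in SEN against NC, with median 0.09. With total counts 8 were higher and 17 lower, and length-corrected 10 were higher and 15 lower. The TMM shares of all tested genes were 37.6% higher and 38.5% lower. Some of the 31, such as Gsr, Slc7a11 and Txn1, are also among the wider NRF2 targets. The sestrins, which are stress-induced partners of peroxiredoxins, moved apart: Sesn2 rose by 1.73 and Sesn1 fell by 1.25. The peroxiredoxins did too, with Prdx6 up by 1.03 and the mitochondrial Prdx3 down by 1.16. In BNPMT against SEN, 18 were higher, 6 lower and 7 not called, with a median of 0.26 (24 higher and 5 lower, median 0.77, with total counts), and Sesn1 rose by 1.66, Prdx3 by 0.94, while Sesn2 fell by 2.86. In BNPMT against NC, 20 were higher, 5 lower and 6 not called, with a median of 0.41 (15 higher and 6 lower, median 0.14, when length-corrected). Glutaredoxin (Glrx) rose by 1.55 (adjusted p = 4.74e-09), to 47.5 FPKM in BNPMT, against 15.7 FPKM in NC cells, the secreted peroxidase Gpx3 rose by 0.81, and Sesn2 fell by 1.13.

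**Figure D4:**
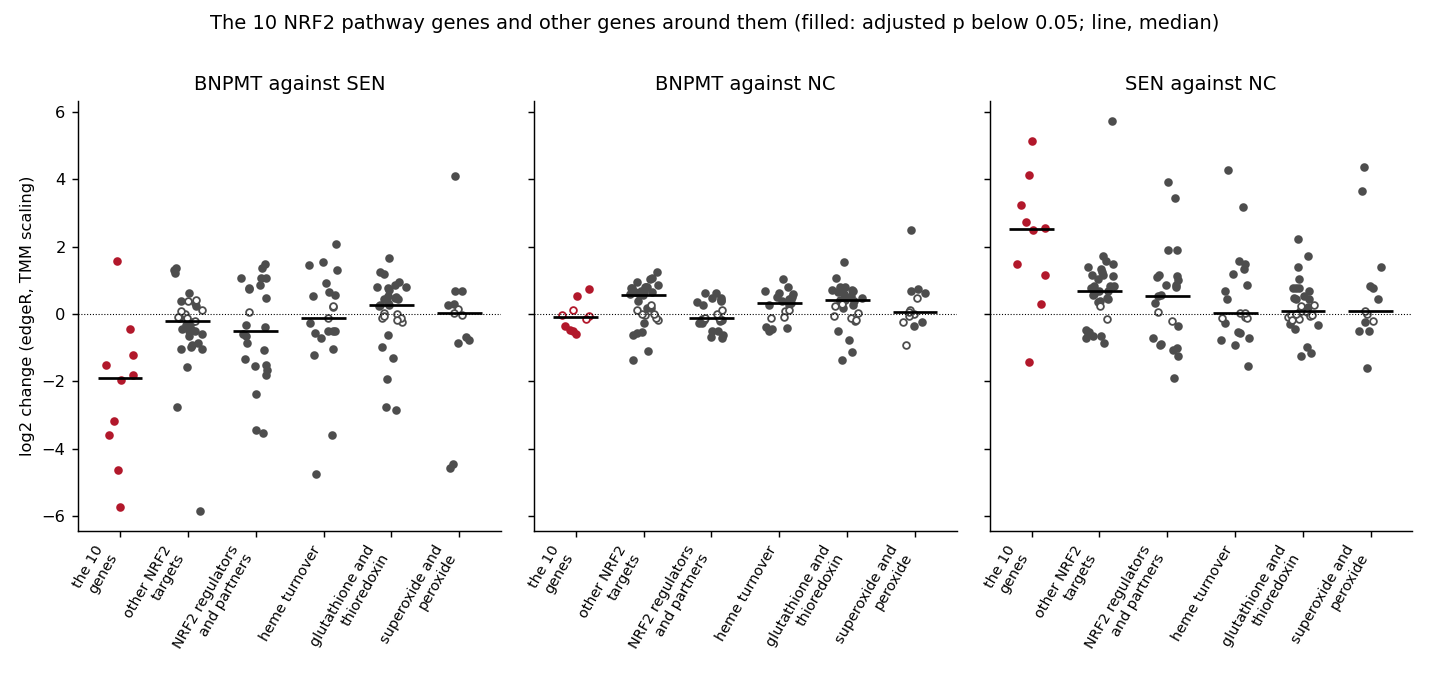
Log2 change (edgeR, TMM scaling) of the 10 genes and of the tested genes of 5 lists, 1 point per gene with the list's median as a line, in BNPMT against SEN, BNPMT against NC and SEN against NC; filled points had an adjusted p below 0.05. The medians of the 10 genes lie at -1.89, -0.10 and 2.53, and those of the lists between -0.49 and 0.69. Medians of the lists shift by up to about 0.5 with total counts. Some genes are in more than 1 list.

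Markers of the cells were checked beside these results. Of 14 nucleus pulposus markers in the table, 10 reached 1 CPM in at least 3 libraries. Their sum was 2610 to 2840 CPM in BNPMT, 7500 to 7640 CPM in SEN and 5390 to 5660 CPM in NC libraries. It was led by Col2a1, at 1962, 6492 and 4571 CPM in these groups, and Acan, while Tbxt, Krt18, Krt19 and Car12 were near 0. Pax1 (148.9, 52.68 and 135 CPM) and Foxf2 (41.53, 12.84 and 32 CPM) were instead lowest in SEN cells. So were Foxf1 (29.22, 17.15 and 30.64 CPM) and Cdh2 (34.02, 13.99 and 34.94 CPM). Of 11 such markers tested in SEN against NC, 7 were called higher and 4 lower, beside 37.6% and 38.5% of all tested genes. Of 7 leukocyte markers, 4 were detected, with a sum of 16.4 to 18.4 CPM in BNPMT, 31.2 to 34.4 CPM in SEN and 11.4 to 12.9 CPM in NC libraries. Cd68, a lysosomal protein of macrophages, averaged 0.527 CPM in BNPMT, 22.6 CPM in SEN and 0.464 CPM in NC cells, and Itgam, an integrin of myeloid cells, averaged 0, 3.97 and 0 CPM and Lyz2, a lysozyme, 0.0652, 1.55 and 0.236 CPM in the same groups, so all 3 moved with Hmox1. Cd14, a lipopolysaccharide co-receptor, went the other way, at 16.6, 4.04 and 11.4 CPM, and Adgre1 and Tyrobp were at 0 in every BNPMT and SEN library, which allows up to 0.0961 CPM in a library by counting error. Of 5 erythroid markers none was detected, and their sum was 0.454 to 0.667 CPM in BNPMT, 0.961 to 1.41 CPM in SEN and 0.145 to 0.478 CPM in NC libraries. Endothelial markers (1 of 7 detected) summed to 0.981 to 1.54 CPM in BNPMT, 4.95 to 5.54 CPM in SEN and 1.04 to 1.55 CPM in NC libraries. The one detected, Pecam1, an adhesion molecule, moved with Hmox1 as well, at 0.0254 CPM in BNPMT, 4.04 CPM in SEN and 0.0165 CPM in NC cells. The 6 smooth muscle markers summed to 2700 to 2940 CPM in BNPMT, 1500 to 1670 CPM in SEN and 4750 to 4800 CPM in NC libraries. The part of such differences in the changes above was not tested.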

How the data were processed

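Poly(A) RNA of 9 libraries (VAHTS Universal V6 kit, TRIzol extraction, per the labels' protocols) was compared in 3 groups of 3. Per the submitters' processing notes, the genome build named was mRatBN7.2 and HISAT2, HTSeq and fastp were among the tools, without version or role; annotation and strand handling were not given in the sources used here. The authors deposited whole-number counts per gene, and FPKM values that equal the count divided by gene length and library total (largest relative difference 6.66e-16). CPM was computed here from the counts and the library totals. The limit of 3 counts for a gene at 0 covers counting error only.

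Log2 changes, SE and p-values are from edgeR 4.0.16 in R 4.3.3 (filterByExpr, TMM, quasi-likelihood F test, all 9 libraries, 14956 genes, Benjamini-Hochberg adjustment, threshold 0.05); the SE is the change divided by the square root of F. On counts simulated from the real means and totals, 97 to 100 genes were changed at each fold, among 14710 to 14713 genes. The test recovered 63.3% of 1.5-fold and 83.5% of 2-fold changes for SEN against NC, and 67.7% and 87.0% for BNPMT against SEN. For BNPMT against NC it recovered 68.0% and 80.0%. It called 8 to 11 unchanged genes. Most genes moved in the real data, and these simulations do not cover that case or its effect on scaling. They therefore give no rate of false calls for these data. No 2 libraries of a group agreed within sampling noise (chi-square per degree of freedom 3.41 to 31.6).

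The 10 genes, the gene lists and the tests were chosen with earlier results of these data known. Named besides the 10 were, in each list and comparison, the 2 higher and the 2 lower genes with the smallest adjusted p, list genes at a mean of 500 FPKM or more, the paralogs, the small MAF genes, Slc7a11, Gsr, Me1 and Osgin1, and the 5 genes whose log2 CPM followed Hmox1 most closely; 2 genes that this rule names are not reported here. Alternatives were DESeq2 size factors, total counts, the Wald test of DESeq2 1.42.0, 2 other filters, a fit of the compared groups alone, a replicate block, a robust prior, limma 3.58.1 on log2(FPKM + 1) with and without the filter and on log2(FPKM + 0.1), where the pseudocount shrinks changes of low genes, a loess curve (span 0.5) over transcript length, a 2-fold minimum, each library left out in turn, and BNPMT 1 with SEN 1.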

Additional observations from a re-analysis of the deposited data

How the results depend on the processing

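Leaving the 2-fold minimum aside, 629 of 660 values of the 10 genes kept direction and call over 22 alternatives, and 1710 of 1782 values of the other named genes did. Leaving out 1 library at a time gave 11070 to 11928 called genes in SEN against NC, 11758 to 12299 in BNPMT against SEN and 6537 to 8525 in BNPMT against NC, and among the 10 genes 9 higher and 1 lower, 1 higher and 9 lower, and 2 higher with 4 to 5 lower. A 2-fold minimum left 5178, 5899 and 938 called genes and, in BNPMT against NC, 0 higher and 0 lower of the 10. Total counts gave 2 of the 10 lower in SEN against NC. No pairing of libraries by replicate number was seen (correlations of same-numbered deviations -0.24 to 0.0581), but groups of 3 cannot exclude it. The -0.24 was between BNPMT 1 and SEN 1, whose trends over length were opposite. A replicate block gave 11143, 11842 and 7348 called genes. Its only changed call among the 10 was Nfe2l2 at -0.14 (adjusted p = 0.0446) in BNPMT against NC. Reversed signs were, in SEN against NC, Nfe2l2 at -0.15 (total counts), -0.14, -0.15 and -0.14 (limma on FPKM), Me1 at -0.12 (total counts), -0.11, -0.12 and -0.11 (limma), and Txnrd3 at 0.05 (DESeq2 size factors, DESeq2 test, and without BNPMT 1 and SEN 1), 0.03 (1 CPM filter) and up to 0.06 without a library. In BNPMT against SEN they were Nfe2l2 at 0.05 (total counts and limma) and Me1 at 0.17 (total counts), 0.16, 0.17 and 0.16 (limma). In BNPMT against NC, where all started near 0, they were Gclm at 0.00 (total counts and limma) and 0.04 (without BNPMT 1, alone or with SEN 1), Nfe2l2 at 0.08, Bach1 at 0.30, Mafk at 0.15 (adjusted p = 0.0491), Gsr at 0.00 and Me1 at -0.01 (all length-corrected), Bach1 at 0.01 (total counts) and 0.00 (limma, and without BNPMT 2), Me1 at 0.00 (DESeq2 size factors, DESeq2 test, the 2 groups alone), -0.04 (without BNPMT 2) and -0.01 (without NC 1), and Osgin1 at 0.16 (without BNPMT 3; -0.44 to 0.16 without any 1 library). With total counts, the Nfe2l2 and Me1 values moved by about as much as the median of all tested genes. That median went from -0.01 to -0.46 in SEN against NC and from 0.02 to 0.52 in BNPMT against SEN. Apart from this shift, the cause of the reversals was not tested. Groups of 3 limit precision; each of the 10 genes had at least 296 counts in a library.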

Other observations

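Of 13 tested genes that make or remove superoxide and hydrogen peroxide, 6 were higher, 4 lower and 3 not called in SEN against NC, with a median log2 change of 0.09 (5 higher and 7 lower with total counts). Sod2, the mitochondrial superoxide dismutase, averaged 35.7 ± 3.01 FPKM in BNPMT, 43.3 ± 0.838 FPKM in SEN and 22.5 ± 0.686 FPKM in NC cells (SD, n = 3 each), and rose by 1.39 in SEN against NC (adjusted p = 4.28e-10). The oxidase gene Duox2 rose by 3.66 from a low base, with 126 to 151 counts in SEN libraries, against 15 to 19 counts in NC libraries, and Nox4 and Duox1 each fell by 0.51. Between BNPMT and SEN cells, 5 of the 13 were higher, 5 lower and 3 not called, with a median of 0.02. With total counts 8 were higher and 4 lower. The TMM counts lie near the 40.7% higher and 39.9% lower of all tested genes. The oxidase gene Nox1 was called higher in BNPMT than in SEN cells, with 36 to 81 counts in BNPMT libraries, against 2 counts in each SEN library. Cyba, a membrane subunit of some of the oxidases, rose by 0.68, while Sod2 fell by 0.78 and Duox2 by 4.59. Against NC, BNPMT cells had 4 higher, 2 lower and 7 not called, with a median of 0.06. With total counts 5 were higher and 1 lower. TMM shares over all tested genes were 26.3% higher and 26.5% lower. Sod2 rose by 0.61 and the cytosolic Sod1 by 0.73, and Nox4 fell by 0.35 (adjusted p = 0.0148) and the secreted Sod3 by 0.23 (adjusted p = 0.0248). The Nox4 call was lost without BNPMT 3 or NC 3 (adjusted p = 0.0657 and 0.0535), and the Sod3 call without BNPMT 2, BNPMT 3 or NC 1 (adjusted p = 0.0752, 0.0975 and 0.153). Both calls were also lost with limma on FPKM (adjusted p = 0.0527 to 0.107 for Nox4 and 0.12 to 0.205 for Sod3). The Sod3 call was lost with total counts too (-0.18, adjusted p = 0.079).

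The 5 tested genes outside the set whose log2 CPM followed Hmox1 most closely over the 9 libraries were Pcbp2 (Pearson r 0.9998) and Egr2, Eif4a2, Arf2 and Atf3 (each 0.9995). The 9 points fall into 3 groups, so these coefficients describe the shape over groups and carry no p. Atf3, a stress-induced transcription factor, averaged 14.2 CPM in BNPMT, 735 CPM in SEN and 19.0 CPM in NC cells. Pcbp2, an RNA-binding protein and iron chaperone, averaged 334 CPM in BNPMT, 579 CPM in SEN and 357 CPM in NC cells, so the likeness lies in shape and not in size.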
